A study of Homo sapiens with 3 samples.

Results

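The 9 genes described here encode the activator protein 1 (AP-1) subunits FOS, FOSB, FOSL1, FOSL2, JUN, JUNB, JUND and ATF3 and the zinc finger factor EGR1. Every probe set that the platform annotation pairs with exactly 1 of these genes was taken, and each was followed separately. This gave 23 of the 54613 probe sets on the array besides controls, and no further probe set names a member together with a second gene. The cells were HT29, an established human colorectal adenocarcinoma line, transduced by lentivirus with an empty vector (1 array) or with a miR-146a expression construct (2 arrays, replicates 1 and 2). Both were grown in DMEM with 10% serum, and the lentiviral transduction is common to both. Whether the transduced cells were a pool or a clone, and whether the 2 replicates came from separate cultures, the labels do not say. All p-values therefore rest on the spread of these few arrays, possibly a technical one, and the vector was measured once.

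AP-1 is a dimer of basic leucine zipper proteins. FOS family members need a JUN family partner to bind DNA, whereas JUN proteins can also pair with each other, and ATF3 joins JUN proteins or itself. FOS, FOSB, JUN, JUNB, ATF3 and EGR1 are immediate early genes, transcribed within minutes of growth factor, serum or stress signals, while FOSL1 and FOSL2 follow later and JUND is usually made constantly. In colorectal cancer cells AP-1 and EGR1 are best known as nuclear endpoints of the RAS, ERK and JNK pathways. miR-146a is a microRNA known for restraining Toll-like and interleukin-1 receptor signalling, which also feeds AP-1. Its mature 5p strand is shown with the seed (bases 2 to 8) in capitals, although the sample titles name miR-146a without a strand. The sequence is from RefSeq on GRCh38.p14 at chr5:160485372-160485393, plus strand.
hsa-miR-146a-5p: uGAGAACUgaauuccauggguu

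The stretch of 250 bases before the annotated start is shown for some members as examples. FOSB, EGR1 and JUND had all their probe sets above the filter higher with miR-146a, and FOS and JUNB lay nearer the vector. The single FOS set was also higher in both arrays, and JUN, with all its 4 probe sets higher, is not shown. The sequences are from RefSeq, GRCh38.p14. FOSB lies at chr19:45467746-45467995 (plus strand), EGR1 at chr5:138465229-138465478 (plus strand), JUND at chr19:18281623-18281872 (minus strand), FOS at chr14:75278578-75278827 (plus strand) and JUNB at chr19:12791236-12791485 (plus strand). Capitals mark matches to the motifs described next.
FOSB: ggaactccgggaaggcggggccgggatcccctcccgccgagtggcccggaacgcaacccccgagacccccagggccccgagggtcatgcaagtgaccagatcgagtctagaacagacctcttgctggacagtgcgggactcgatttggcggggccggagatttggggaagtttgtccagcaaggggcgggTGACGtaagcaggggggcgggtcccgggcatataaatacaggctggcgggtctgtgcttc
EGR1: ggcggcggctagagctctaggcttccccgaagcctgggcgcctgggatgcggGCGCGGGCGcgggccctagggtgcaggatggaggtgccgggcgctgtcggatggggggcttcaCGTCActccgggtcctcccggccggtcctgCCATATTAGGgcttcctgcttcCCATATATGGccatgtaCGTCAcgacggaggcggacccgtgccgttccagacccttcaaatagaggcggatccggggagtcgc
JUND: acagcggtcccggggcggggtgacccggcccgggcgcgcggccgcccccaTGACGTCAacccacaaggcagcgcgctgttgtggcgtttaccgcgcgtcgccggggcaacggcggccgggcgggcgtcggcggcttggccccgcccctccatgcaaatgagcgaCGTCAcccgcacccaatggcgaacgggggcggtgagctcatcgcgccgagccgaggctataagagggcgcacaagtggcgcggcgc
FOS: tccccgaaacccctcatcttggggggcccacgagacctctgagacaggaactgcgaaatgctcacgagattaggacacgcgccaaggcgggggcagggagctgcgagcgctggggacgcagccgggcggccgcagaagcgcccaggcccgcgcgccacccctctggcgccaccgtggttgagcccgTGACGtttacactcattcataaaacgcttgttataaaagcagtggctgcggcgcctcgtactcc
JUNB: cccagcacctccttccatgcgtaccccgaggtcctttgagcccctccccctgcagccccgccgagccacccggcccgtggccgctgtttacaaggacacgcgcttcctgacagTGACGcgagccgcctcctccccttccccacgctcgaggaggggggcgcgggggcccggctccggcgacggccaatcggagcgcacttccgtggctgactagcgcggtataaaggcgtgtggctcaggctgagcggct

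Windows of 250 bases before to 50 bases after a start were searched on both strands for 7 motifs, among 35116 windows in all, which were not matched for base composition. Positions count the start base as 1 and the base before it as -1. 8 of the 9 members had a window, ATF3 had 2, and FOSL1 had none here. The cAMP response core TGACG was found in 7 of the 8 members, against 24.6% of all windows. In FOS it lay at -64 to -60 from the start and in FOSB at -60 to -56. Within these windows EGR1 was the only member with the CArG box that serum response factor binds. It had 2 copies, at -105 to -96 and -83 to -74, against 1.29% of all windows with any. EGR1 also held a match to the EGR site GCGNGGGCG at -198 to -190 (9.43% of windows). The full cAMP response element TGACGTCA, which contains the core, occurred in JUND alone, at -200 to -193 (1.85% of windows). JUN and ATF3 each held the variant TGACATCA, at -67 to -60 in JUN and at -123 to -116 in 1 window of ATF3 (2.61%). The AP-1 element TGANTCA was found in FOSL2 only, at 5 to 11 after the start (7.71%), and the ETS site CCGGAAGT in none (4.14%). In their windows FOS and FOSB held no other match than the core. Sequence more than 250 bases before a start was not searched, so a site further out would be missed in any member. A match describes the letters of these windows and not binding in HT29 cells.

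**Figure D1:**
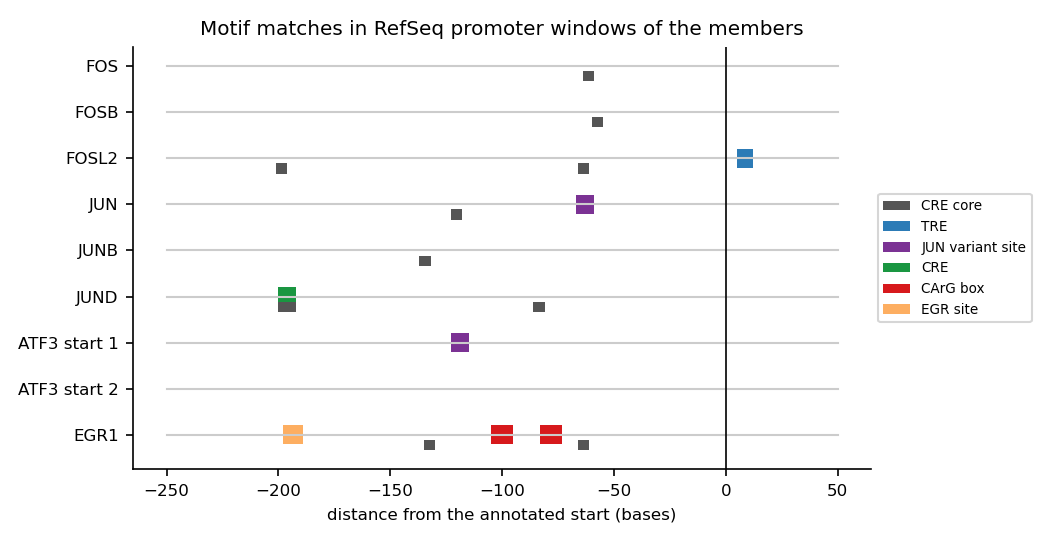
Matches to the searched motifs in RefSeq promoter windows of 8 members, by distance in bases from the annotated start (vertical line); small grey bars are the TGACG core and taller bars the other motifs. Within the windows searched, the 2 CArG boxes appear in EGR1 alone, and the cores of FOS and FOSB sit at nearly the same distance from the start.

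The deposited values are log2 expression values made by RMA, and over the 27306 probe sets above the filter (an average signal over 5.13) the median difference between groups was 0. Differences below are the mean of the miR-146a arrays minus the vector array on the log2 scale, and levels of different probe sets are not compared. Of the 11 colorectal epithelial markers 10 were above the filter and GPA33 was below it. CDX2 (5.63 in the vector) and CDH17 (5.86) lay near the filter. The medians over all 11 were 11.07 in the vector and 10.82 and 10.84 in the miR-146a arrays. Of the leukocyte markers 1 of 3 measured (CD14) and of the fibroblast and endothelial markers 2 of 6 (COL1A1 and PECAM1) were above it, while PTPRC, COL3A1 and CDH5 were not. Control probes at the 5′ ends of ACTB and GAPDH were lower in the miR-146a arrays by -0.18 to -0.32, and their 3′ sets differed by -0.03 to 0.05. The part of RNA integrity in the results below was not tested.

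By the mean over all of a gene's probe sets, whatever their signal, FOSB stood highest relative to the vector (1.02), then FOSL1 (0.61), EGR1 (0.57), JUND (0.37), JUN (0.25), ATF3 (0.17) and FOS (0.17), while JUNB (-0.03) and FOSL2 (-0.17) were not higher. Single probe sets overlap between these genes, since the lowest set of EGR1 (0.42) is under the highest of JUND (0.49) and of JUN (0.43). Of the 23 probe sets 17 were above the vector in both miR-146a arrays, 4 below it in both, and 2 in neither. Above the filter lay 21 probe sets. Among these, 16 were higher in both arrays, where 36% of all tested probe sets were, and 3 were lower in both, against 33.1%. With a size of at least 1.5-fold (0.585 on the log2 scale) in both arrays, 3 of all 23 were higher and 0 lower, where 0.447% and 0.688% of all tested probe sets were. The 3 are the FOSB and FOSL1 probe sets and 1 of EGR1. At a smaller size of 0.32 on the log2 scale 9 were higher and 0 lower, against 3.54% and 3.99%. The median difference over the 21 member probe sets above the filter was 0.26 (0.29 in replicate 1 and 0.24 in replicate 2), and over all tested probe sets it was 0. Over all 23 member probe sets it was 0.22 (0.22 in each replicate). In bulk RNA such as this, a change in every cell and a change in the share of cells that express a gene cannot be told apart.

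In limma with Benjamini-Hochberg adjustment over 27306 probe sets, 0 member probe sets passed 0.05, as did 0% of all probe sets tested. The smallest adjusted p was 0.131, for members and for all. At an unadjusted p under 0.05, 10 of 21 member probe sets were higher and 1 lower, against 12.4% and 10.9% of all. The miR-146a arrays hold exactly equal values (tolerance 0) for 12.5% of the tested probe sets, and for 3 of the 23 member probe sets, and such sets get very small standard errors. With the variance prior taken from probe sets whose replicates differ, 9 member probe sets were called higher and 0 lower, against 4.14% and 4.78% of all. They belong to FOSB, FOSL1, EGR1 (3), ATF3 (1), JUN (1) and JUND (2). That setting, called the unequal-replicate prior below, takes the single vector array to vary like the miR-146a arrays. Its prior rests on the spread between the 2 miR-146a arrays, possibly a technical one, with 1 residual degree of freedom a probe set. All adjusted p values quoted from it may therefore be too small. A permutation of 1 array against 2 allows only 3 arrangements, with an exact smallest p of 0.333.

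**Figure D2:**
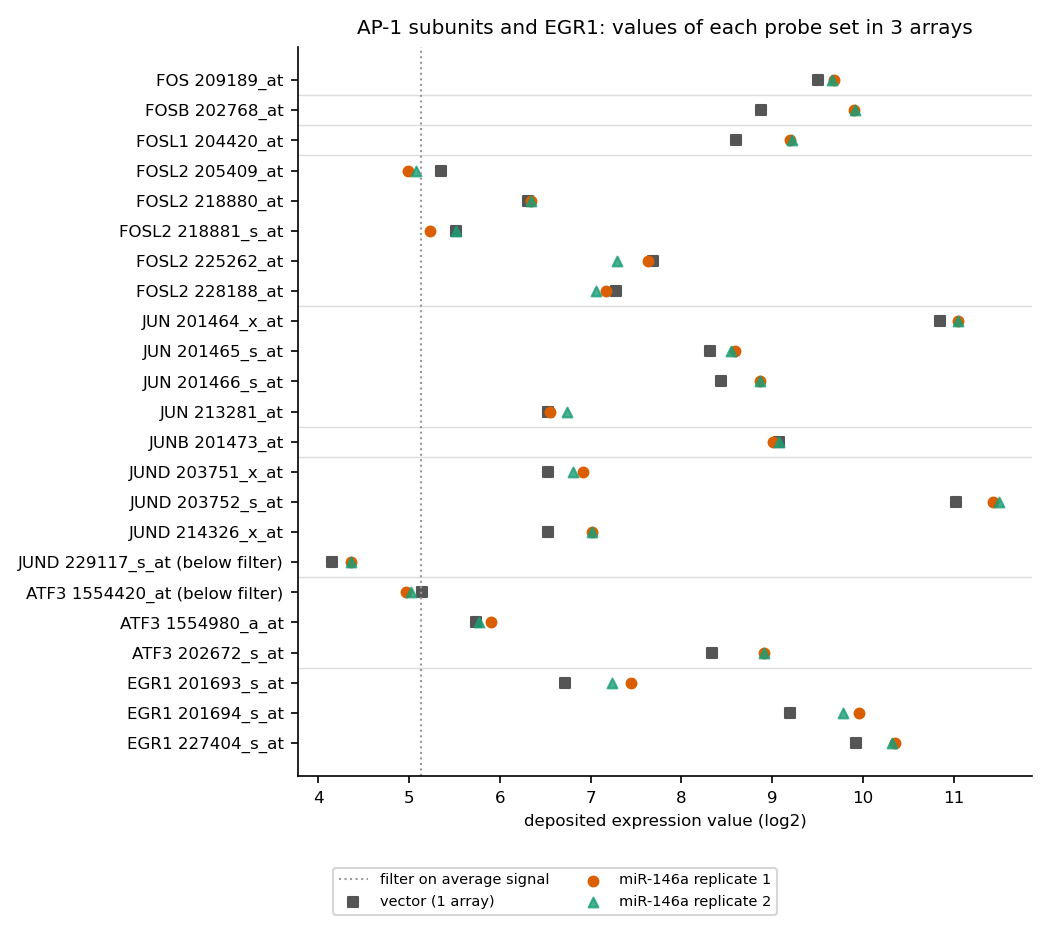
Deposited log2 values of the 23 probe sets of the 9 genes in the vector array (squares) and miR-146a replicates 1 (circles) and 2 (triangles); the dotted line is the filter on average signal, 5.13. For FOSB, FOSL1 and EGR1 both miR-146a values lie to the right of the vector value, and for JUNB and for FOSL2 218881_s_at replicate 2 coincides with it.

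The FOS family held both the highest difference of the 9 genes (FOSB) and the lowest (FOSL2). FOSB, which also makes a truncated form that lacks the transactivation domain, was at 8.88 in the vector array, 9.90 in miR-146a replicate 1 and 9.91 in replicate 2. Both miR-146a values were far above the vector value and close to each other. The log2 difference was 1.02, a 2.03-fold difference with a replicate SD of 0.01 (n = 2), and ranked 22 from the highest among the 27306 tested probe sets. Limma gave a standard error of 0.014 and an adjusted p of 0.131, and the unequal-replicate prior a standard error of 0.0996 and an adjusted p of 1.86e-05. FOSB is measured by 1 probe set, and which of its splice forms that set reads was not examined.

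FOS, the prototype of the family and a rapid target of ERK signalling, was at 9.50 in the vector array against 9.68 and 9.66 with miR-146a. Both were above the vector, by 0.18 and 0.16, and the difference of 0.17 (1.12-fold) lay at percentile 84.2 of all tested probe sets. It did not pass limma (adjusted p = 0.156) or the unequal-replicate prior (adjusted p = 0.37). Set beside FOSB, the FOS difference was 0.18 against 1.02 in replicate 1 and 0.16 against 1.03 in replicate 2, and that gap was not tested.

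FOSL1 (FRA-1), a late AP-1 subunit stabilised by ERK and linked to invasion of colon cancer cells, had values of 8.60 with the vector and 9.20 and 9.22 with miR-146a. Both replicates were above the vector and 0.02 apart. The difference was 0.61 (1.52-fold, replicate SD 0.01, n = 2). Its adjusted p was 0.131 in limma and 0.0013 with the unequal-replicate prior. Its replicate 1 difference of 0.597 lies just over the 1.5-fold size, and was 0.577 with cyclic loess and 0.58 with quantile normalization.

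FOSL2 (FRA-2), a late FOS relative that lacks the strong transactivation domain of FOS, was covered by 5 probe sets that did not go one way. The probe set 205409_at read 5.36 in the vector and 4.99 and 5.07 in the miR-146a arrays, a difference of -0.32 and the lowest of all 23, with both miR-146a values below the filter. The probe set 225262_at read 7.68 in the vector, 7.63 in replicate 1 and 7.29 in replicate 2, so that its difference of -0.23 came mostly from replicate 2. By contrast 218881_s_at was at 5.51 in both the vector and replicate 2 and at 5.23 in replicate 1. The set 228188_at differed by -0.16, with both replicates lower, and 218880_at by 0.03 with equal replicates. None passed limma or the unequal-replicate prior (smallest adjusted p 0.0574, for 205409_at), so FOSL2 was lower in 3 probe sets without passing a test.

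Among the JUN proteins, which supply the obligate partners of the FOS family, JUN and JUND were higher in every probe set and JUNB was not. JUN, the main substrate of the JNK kinases, had 4 probe sets, all above the vector in both arrays, with differences from 0.12 to 0.43. The highest, 201466_s_at, read 8.43 in the vector and 8.86 in both miR-146a arrays (1.35-fold). Its adjusted p was 0.131 in limma and 0.0126 with the unequal-replicate prior. The set 201465_s_at read 8.31 against 8.59 and 8.55, a difference of 0.26, and 201464_x_at read 10.85 against 11.05 in each miR-146a array, a difference of 0.20. For 213281_at the vector stood at 6.53, replicate 1 at 6.55 and replicate 2 at 6.74 (difference 0.12), so that replicate 2 carries that value. Only the first of these 4 passed with the unequal-replicate prior.

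JUND, the subunit usually present in resting cells, had 4 probe sets, all higher in both arrays and 3 of them above the filter. The set 203752_s_at read 11.03 in the vector and 11.44 and 11.49 in the miR-146a arrays, a difference of 0.44 (1.36-fold, replicate SD 0.04, n = 2). The set 214326_x_at read 6.53 against 7.02 in each replicate, a difference of 0.49, and 203751_x_at read 6.53 against 6.92 and 6.81, a difference of 0.33. Below the filter, 229117_s_at read 4.15 against 4.36 in each. With the unequal-replicate prior the adjusted p was 0.0114 for 203752_s_at, 0.00563 for 214326_x_at and 0.0556 for 203751_x_at; in limma none passed (0.15, 0.131 and 0.263). Sets whose name ends in x_at can take signal from related sequences, so they are not independent readings of JUND. The same limit holds for the JUN set 201464_x_at.

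JUNB, a weaker transactivator that can hold back JUN, read 9.08 in the vector array, 9.01 in replicate 1 and 9.08 in replicate 2. Replicate 2 coincided with the vector, and the difference of -0.03 had a replicate SD of 0.05 (n = 2). The vector value exactly equals that of a miR-146a array in 16.9% of the tested probe sets and in 2 of the 23 member probe sets. No test called it (adjusted p = 0.738 in limma and 0.948 with the unequal-replicate prior). Since JUNB had 1 probe set, no second reading bears on it.

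**Figure D3:**
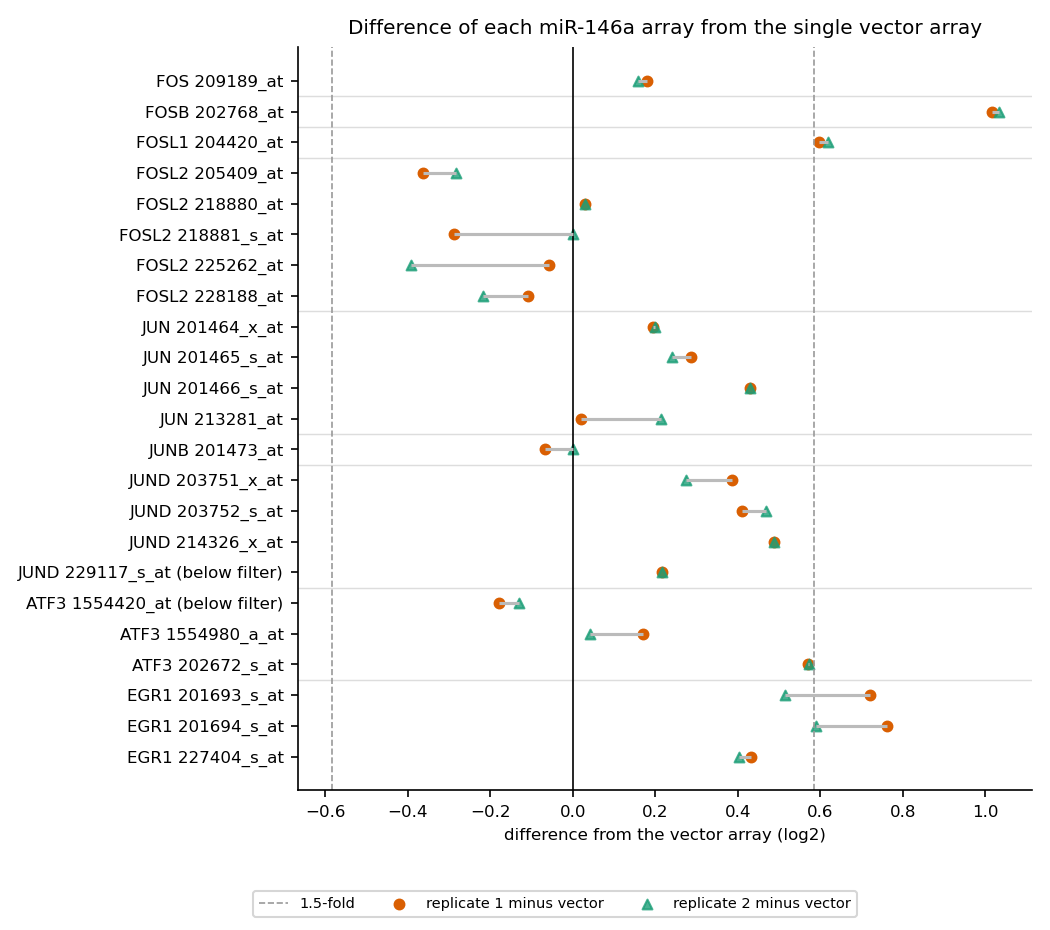
Difference of each miR-146a array from the vector array (log2) for the 23 probe sets; circles are replicate 1, triangles replicate 2, and dashed lines mark 1.5-fold. FOSB is the only gene near 1, the probe sets of JUN, JUND and EGR1 all lie right of 0, and those of FOSL2 lie mostly left of it.

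ATF3, a stress-induced partner of JUN proteins that often represses its targets, gave different answers by probe set. The set 202672_s_at read 8.34 with the vector and 8.91 in both miR-146a arrays, a difference of 0.57 (1.49-fold). Limma gave an adjusted p of 0.131 and the unequal-replicate prior 0.00196. The set 1554980_a_at read 5.73 against 5.90 and 5.78 (difference 0.11), and 1554420_at, below the filter, read 5.15 against 4.97 and 5.02 (difference -0.15). The 3 sets thus spanned 0.73 on the log2 scale, the widest range within any of the 9 genes. The mean of the 3 was 0.17. The 2 sets with the lower values lay near or below the filter, and which transcripts each set reads was not examined here.

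EGR1, a zinc finger activator induced by ERK through serum response factor, was higher in all 3 of its probe sets. The set 201694_s_at read 9.19 with the vector and 9.96 and 9.78 with miR-146a, a difference of 0.68 (1.60-fold, replicate SD 0.12, n = 2). The set 201693_s_at read 6.72 against 7.44 and 7.23 (difference 0.62), and 227404_s_at read 9.92 against 10.35 and 10.32 (difference 0.42). In each set replicate 1 stood above replicate 2, and both stood above the vector. With the unequal-replicate prior the adjusted p values were 0.000938, 0.00216 and 0.015; in limma they were 0.216, 0.261 and 0.131. Of the 3 only 201694_s_at was past 1.5-fold in both arrays, with 0.589 in replicate 2. That value was 0.584 with cyclic loess and 0.583 with quantile normalization, so FOSB alone stayed past 1.5-fold in both arrays under those settings.

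Partner genes were read from 5 lists with 1 probe set a gene, the one of highest average signal, and counted by the same size rule. Over all 12444 genes above the filter, 0.546% were at least 1.5-fold higher in both arrays and 0.297% lower, and at the smaller size of 0.32 they were 3.79% and 1.95%. On the same basis the 9 members gave 2 genes past 1.5-fold, both higher, and 5 past 0.32, and their median difference was 0.42 against 0.015 over all genes. The highest-signal set of EGR1 is its lowest in difference and that of JUN is among its lower ones. Limma, adjusted over all probe sets, called 0 genes of any list. The unequal-replicate prior called 4.4% of all genes higher and 2.29% lower, and 5 and 0 of the 9 members.

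Of the dimer partners and relatives, 11 of 14 were above the filter, 1 was past 1.5-fold higher and none lower, and the median difference was 0.0034. The gene past 1.5-fold was BATF2, an interferon-inducible leucine zipper protein, at 4.88 in the vector and 5.50 and 5.58 in the miR-146a arrays (0.66; adjusted p = 0.000784 with the unequal-replicate prior). Its vector value lies below the filter, so it was tested through its miR-146a values. BATF differed by -0.10, CREM by -0.13 and ATF2, a JUN partner phosphorylated by JNK and p38, by -0.29 with replicate values of -0.51 and -0.07. The other probe sets of CREM above the filter ranged from -0.04 to 0.06. None of BATF, CREM and ATF2 passed. Of 25 listed kinases and factors upstream of AP-1, 20 were above the filter, 0 were past 1.5-fold and 1 was past 0.32, with a median of 0.04. MAPK7, the kinase ERK5, was 1.31-fold higher (5.95 against 6.34 in both arrays), with its other probe set at 0.21. MAP3K1, a kinase feeding JNK, differed by 0.28 (0.14 with all its probe sets averaged) and RPS6KA5 by 0.22 (0.11 averaged). MAP2K5, the activator of ERK5, differed by -0.19, and its other sets ranged from -0.27 to 0.21. With the unequal-replicate prior MAPK7 alone of these 20 passed (adjusted p = 0.0196). Probe sets of this list disagreed in places. MRTFB, a coactivator of serum response factor, differed by 0.05, but its other set above the filter was at -0.65. These are transcript values and say nothing of kinase activity.

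Of the EGR relatives and corepressors only NAB1 and NAB2, which bind and restrain EGR proteins, were above the filter, with differences of 0.10 and 0.09. The other probe sets of NAB1 were lower, at -0.25 and -0.10. The other immediate early genes lay on both sides of the vector. Of 24 listed, 23 were above the filter, 2 were past 1.5-fold higher and 0 lower, 7 were past 0.32 higher and 1 lower, and the median was 0.15. CCN2, a matricellular growth factor, read 6.37 in the vector and 7.38 and 7.26 in the miR-146a arrays (1.94-fold). SGK1, a serum-induced kinase, read 8.05 against 8.79 and 8.68 (1.61-fold). RGS2, a brake on G protein signalling, differed by 0.49 and TRIB1, a pseudokinase, by 0.47, although all probe sets of TRIB1 averaged gave 0.06. With the unequal-replicate prior 7 of the 23 passed as higher and 1, GADD45B at -0.39, as lower, against 4.4% and 2.29% of all genes. The other probe sets of GADD45B above the filter ranged from -0.58 to -0.06; GADD45B and MRTFB were named after their values were seen.

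Among genes known as outputs of AP-1 or EGR1, 17 of 24 were above the filter, 0 were past 1.5-fold higher and 1 was lower, with a median of 0.09. The lower one was NDRG1, a stress- and oxygen-regulated gene, at 10.67 against 9.49 and 9.45. CXCL8, a neutrophil chemokine with an AP-1 site in its promoter, differed by 0.60 with 0.57 in replicate 1, and by 0.31 with all its probe sets averaged. LIF, a cytokine, read 7.35 against 7.83 and 7.77 (1.37-fold), and GDF15, a stress cytokine, was 1.30-fold higher. With the unequal-replicate prior 5 of these 17 passed as higher and 1 as lower, against the same 4.4% and 2.29%; a single lower gene is near that share. Over the 2 array differences, the 5 genes nearest to FOSB (Euclidean distance on the log2 scale, 3 arrays in all) were GBP1 at 0.0122, TGFB2 at 0.101, IFIT5 at 0.104, IFI6 at 0.114 and CCN2 at 0.136. GBP1, IFIT5 and IFI6 are known as interferon-induced genes and TGFB2 encodes a transforming growth factor. With 3 arrays this likeness is one of size alone.

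**Figure D4:**
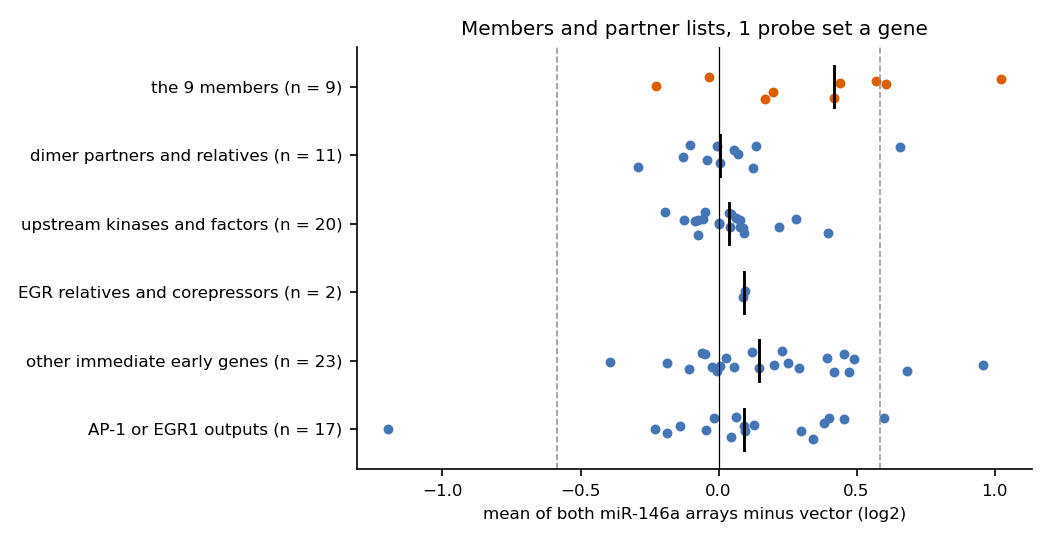
Mean log2 difference between the miR-146a arrays and the vector array for the 9 members and 5 partner lists, 1 probe set a gene; points are genes, black bars list medians and dashed lines 1.5-fold (vertical jitter has no meaning). The member median of 0.42 lies right of the list medians of 0.0034 to 0.15, and in the probe sets shown all 20 kinases and factors upstream of AP-1 lie inside the dashed lines.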

How the data were processed

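Total RNA was hybridised as biotin-labelled cRNA to 3 Affymetrix arrays, and the authors deposited log2 values for 54675 probe sets, made with RMA per the submitters' processing notes. The RMA version and the arrays normalized together are not stated in the sources used here. No detection calls were used, so depth is judged from signal alone and the number of arrays limits the precision. Gene names come from the platform's annotation of the probe sets, with symbols updated by Entrez number from RefSeq.

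Each probe set was fitted in limma 3.58.1 (R 4.3.3; lmFit and eBayes, two-sided, Benjamini-Hochberg, threshold 0.05) with 1 residual degree of freedom, among 27306 probe sets with an average signal above the median of 5.13. The fit was also run on simulated data, whose 3 arrays shared 1 spread for each probe set. That run could not check how far the single vector array varies. Named genes are all member probe sets, and up to 4 genes a list with the largest smaller-of-2 difference on 1 side. The members, lists and alternatives were chosen with earlier results of these data known. Other filters, priors and normalizations, other sizes and leaving out each miR-146a array were tried. Figures used matplotlib 3.10.9.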

Additional observations from a re-analysis of the deposited data

How the results depend on the processing

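Plain limma called 0 member probe sets with no filter, a filter at percentile 70, an intensity trend, a robust prior, cyclic loess or quantile normalization. Under each of these it also called 0 of all probe sets, with smallest limma adjusted p values from 0.0534 to 0.14. Its default prior carried only 0.558 degrees of freedom in the main fit. These nil counts therefore cannot tell the members from other probe sets. With the unequal-replicate prior it called 9 as higher, and of all probe sets 1130 were higher and 1306 lower; this rests on the spread of 2 miR-146a arrays and 1 residual degree of freedom. The count of member probe sets at least 1.5-fold higher, 3 as reported, was 1 with cyclic loess and 1 with quantile normalization, where FOSL1 and EGR1 dropped just under the size, 9 at a log2 size of 0.32 and 1 at 2-fold. Higher in both arrays were 17 member probe sets, 16 with cyclic loess, 16 with quantile normalization and 13 with the filter at percentile 70. Lower in both were 4, and 5 with cyclic loess and 2 with that filter, which keeps fewer probe sets. Partner genes past the size were 3 higher and 1 lower, against 14 and 2 at a log2 size of 0.32. Leaving out either miR-146a array, a value with no test, left 3 to 4 member probe sets past 1.5-fold higher and 0 lower, and 4 to 6 below the vector. Over these normalizations and filters the difference of FOSB ran from 1.01 to 1.03, and the mean difference of no member probe set changed sign. No paired analysis was possible because the vector has 1 array and the groups share fewer than 2 replicate numbers.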
